A study of Mus musculus with 10 samples.

Results

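The genes described here encode 37 aminoacyl-tRNA synthetases of the mouse, taken by symbol from tables of 15498 genes in embryonic hearts and 15989 genes in adult heart apex. Of these, 21 encode mainly cytosolic enzymes and 16, whose symbols end in 2, encode mitochondrial enzymes. All 37 are listed for the adult and 30 for the embryo, of which 17 are cytosolic and 13 mitochondrial. Hars, Lars, Nars, Tars, Aars2, Fars2 and Lars2 were not analysed in the embryonic hearts. Every listed member passed the filter on low values, which asks for a value of at least 1 in as many samples as a group holds.

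Each synthetase attaches an amino acid to its matching tRNA, the step that sets which amino acid a codon brings into a protein. Cytosolic enzymes charge the tRNAs that serve cytosolic ribosomes, and a nuclear-encoded second set is imported into mitochondria to charge the tRNAs written in mitochondrial DNA, which the heart uses to build its respiratory chain. Some cytosolic enzymes are held together in the multisynthetase complex around the scaffold proteins encoded by Aimp1, Aimp2 and Eef1e1. An uncharged tRNA activates the kinase GCN2 (Eif2ak4), which leads to translation of the transcription factor ATF4, and genes of cytosolic synthetases are among the known ATF4 targets.

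The embryonic comparison has 3 whole hearts of Larp7-/- embryos and 3 of Larp7+/+ embryos, at day E15.5. The adult comparison has 2 samples of apex tissue from Myh6Cre;Larp7f/f mice, where the cardiomyocyte promoter of Myh6 drives the recombinase, and 2 from Larp7f/f control mice, at an age of 4 months. All were on the C57BL/6 strain, and LARP7 itself is an RNA-binding protein of the 7SK ribonucleoprotein. Both adult groups carry the floxed alleles, the controls are labelled without Cre, and the deletion is directed at cardiomyocytes, so Larp7 RNA of other apex cells is also measured. The sources do not state whether replicate samples are separate animals, and p-values cover no more than the spread among the samples at hand. Larp7 stood at 45, 54 and 40 in E15.5 knockout hearts and at 96, 88 and 103 in wild-type hearts (log2 change -1.04, limma adjusted p = 0.00159), whereas the adult apex had 26 and 24 in knockouts and 26 and 28 in controls (log2 change -0.11, adjusted p = 0.933), so the adult labels are not checked by this gene.

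The deposited values are on a per-million scale and whole numbers, each sample summing to between 998498 and 1001508, so sequencing depth is unknown. The sources do not say whether gene length was taken into account, so levels of single genes are not compared with each other. In all 30 and 37 listed members knockout and control values that carry one replicate number have a fixed sum, within 2. The SDs of both groups of a gene are therefore nearly equal by construction, and a sample that is high in one group has a low partner in the other. Changes are knockout minus control on the log2(value + 1) scale, and a gene was called at an adjusted p under 0.05 by limma over the whole table. Of the genes tested, 0.632% were called at E15.5, with 72 higher and 14 lower (11 and 7 with median-of-ratios scaling). In the adult 3.29% were called, with 347 higher and 141 lower (287 and 220 with that scaling). The summed markers of cardiomyocytes, 6 of 10 listed, were 12812 to 15406 in E15.5 knockout hearts and 16791 to 19387 in wild-type hearts. Of these 6, Myl7 had a positive change and 5 had negative ones, of which Tnnc1 was called. Fibroblast markers, 7 of 10 listed, summed to 4928 to 5796 in knockouts and 4044 to 4917 in wild types, and no listed marker was at 0 in every sample. The fibroblast gap lay mainly in number 3, at 5796 in the knockout and 4044 in the wild type. Number 1 had 5006 and 4834, and number 2 had 4928 and 4917. Of these 7 markers, 5 had positive changes, of which Pdgfra was called, and 2 had negative ones. Markers of stratified epithelium summed to 77 to 250 in knockouts, highest in number 1, and to 66 to 106 in wild types. Erythroid markers at E15.5 (13 of 14) summed to 4889, 4898 and 9800 in knockouts and to 7781, 7771 and 3174 in wild types. Number 3 thus went the other way from numbers 1 and 2. In the adult, cardiomyocyte markers (10 of 10) summed to 55458 to 56255 in knockouts and 58518 to 59313 in controls. Of these, 4 had positive changes and 6 negative ones. Myh7, the called one, was higher, at 1090 and 892 in knockouts and 270 and 468 in controls. Adult fibroblast markers (10 of 10) summed to 2490 to 2813 in knockouts and 1371 to 1692 in controls, and erythroid markers (9 of 14) to 1292 to 2912 in knockouts and 143 to 1504 in controls. Adult macrophage markers (9 of 9) summed to 739 to 742 in knockouts and 630 to 633 in controls, and epicardial markers (8 of 8), of which 2 were called higher, to 79 to 118 in knockouts and 24 to 64 in controls. Endothelial markers (10 of 10) summed to 947 to 971 in knockouts and 1017 to 1041 in controls, and markers of smooth muscle and pericytes (9 of 9) to 1118 to 1124 in knockouts and 1206 to 1210 in controls. The part of these shifts in the synthetase values was not tested, and in bulk tissue fewer cells of a type and less RNA per cell cannot be told apart.

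The promoters of the synthetases were read for the C/EBP-ATF response element, the sequence bound by dimers of ATF4 and C/EBP proteins, written here as TGATGNAA and searched on both strands. RefSeq windows from 250 bases before to 50 bases after the start, on build GRCm38.p6, were matched for 27 of the 37 members. The letters were present in 5 of 13 cytosolic windows, which is 38.5%, and in 0 of 14 mitochondrial ones, against 4.51% of the 27025 genes with such a window. Among genes of the starvation and ATF4 response, 10 of 31 had it (32.3%). The cytosolic members with the motif were Aars, Gars, Iars, Tars and Yars, which charge tRNAs for alanine, glycine, isoleucine, threonine and tyrosine. Their windows are printed 5′ to 3′ on the strand of the gene, to show how near the start the motif lies in each. Capitals mark the motif, which reads TTGCATCA or TTTCATCA where it lies on the opposite strand.
Aars, chr8:111033592-111033891, plus strand: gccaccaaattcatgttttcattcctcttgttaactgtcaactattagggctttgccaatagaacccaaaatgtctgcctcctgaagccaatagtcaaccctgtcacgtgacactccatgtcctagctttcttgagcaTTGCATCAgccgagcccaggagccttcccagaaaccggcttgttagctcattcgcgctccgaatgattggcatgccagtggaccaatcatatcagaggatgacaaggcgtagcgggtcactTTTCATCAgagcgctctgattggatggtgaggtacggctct
Gars, chr6:55037751-55038050, plus strand: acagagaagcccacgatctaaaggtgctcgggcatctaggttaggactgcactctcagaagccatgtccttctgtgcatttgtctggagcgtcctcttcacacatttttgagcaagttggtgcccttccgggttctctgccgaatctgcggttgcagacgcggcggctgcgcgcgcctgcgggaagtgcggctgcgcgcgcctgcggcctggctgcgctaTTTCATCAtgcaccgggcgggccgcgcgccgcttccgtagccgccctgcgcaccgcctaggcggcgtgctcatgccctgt
Iars, chr13:49681880-49682179, plus strand: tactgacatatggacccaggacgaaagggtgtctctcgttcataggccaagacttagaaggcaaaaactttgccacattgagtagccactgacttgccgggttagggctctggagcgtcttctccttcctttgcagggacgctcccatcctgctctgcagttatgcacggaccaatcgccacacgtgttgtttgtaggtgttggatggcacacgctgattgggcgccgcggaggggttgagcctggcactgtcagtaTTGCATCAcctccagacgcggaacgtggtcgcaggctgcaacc
Tars, chr15:11399609-11399908, minus strand: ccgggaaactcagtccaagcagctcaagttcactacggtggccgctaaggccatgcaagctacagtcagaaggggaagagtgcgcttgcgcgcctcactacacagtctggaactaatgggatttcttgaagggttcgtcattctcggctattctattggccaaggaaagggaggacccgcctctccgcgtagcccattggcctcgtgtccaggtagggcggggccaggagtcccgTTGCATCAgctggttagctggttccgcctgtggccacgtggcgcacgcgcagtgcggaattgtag
Yars, chr4:129189653-129189952, plus strand: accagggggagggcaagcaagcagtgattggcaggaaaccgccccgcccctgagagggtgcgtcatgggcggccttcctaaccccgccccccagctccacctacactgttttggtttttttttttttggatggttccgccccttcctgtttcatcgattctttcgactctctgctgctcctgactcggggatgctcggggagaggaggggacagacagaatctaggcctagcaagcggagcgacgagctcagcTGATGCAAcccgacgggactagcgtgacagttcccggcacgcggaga

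Counted from the start, the motif begins at -112 and at 9 in Aars, at -30 in Gars, at 7 in Iars, at -15 in Tars and at 3 in Yars. A match is a description of the letters and not a measured binding site. The changes of the motif-bearing genes lay within those of the other cytosolic members with a window at E15.5, at 0.18 to 0.31 with a median of 0.26 (n = 4) beside -0.11 to 0.39 with a median of 0.26 (n = 8). In the adult they were 0.18 to 0.31 with a median of 0.27 (n = 5), beside -0.071 to 0.25 with a median of 0.14 (n = 8). The cytosolic members without a window, Cars, Hars, Lars, Mars, Nars, Rars, Vars and Wars, stand in neither set. Cars had the largest change of any member at E15.5. No test was made of these small sets.

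At E15.5 the cytosolic synthetases mostly had higher values in the Larp7 knockout hearts, while the mitochondrial synthetases had a median change close to 0. Of the 30 listed members, 0 were called singly by limma, beside 0.529% of all genes called higher and 0.103% called lower. Of 17 cytosolic members, 14 had a positive change and 3 a negative one, with a median of 0.25, beside a median of 0.11 and 60.4% positive changes over all genes tested. Of 13 mitochondrial members, 4 had a positive change and 9 a negative one, with a median of -0.039, beside 33.1% negative changes over all genes. Hars2, Nars2 and Rars2 lay at 0.00037, -0.00099 and -0.0085, so their signs carry little weight. Within number 2, 10 of the 13 had a positive difference. Positive and negative changes were 6 and 7 without either number 1 sample, 3 and 10 without either number 2 sample, and 6 and 6 without either number 3 sample. At an unadjusted p under 0.05, limma marked 4 members (Cars, Eprs, Sars and Qars), all cytosolic and higher, and 0 that were lower, beside 10.3% of all genes higher and 3.62% lower. Knockout and wild-type values did not overlap in 10 cytosolic members that were higher and 1 that was lower, beside 19.3% and 8.75% of all genes. Among mitochondrial members 1 was higher without overlap and 0 were lower.

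**Figure D1:**
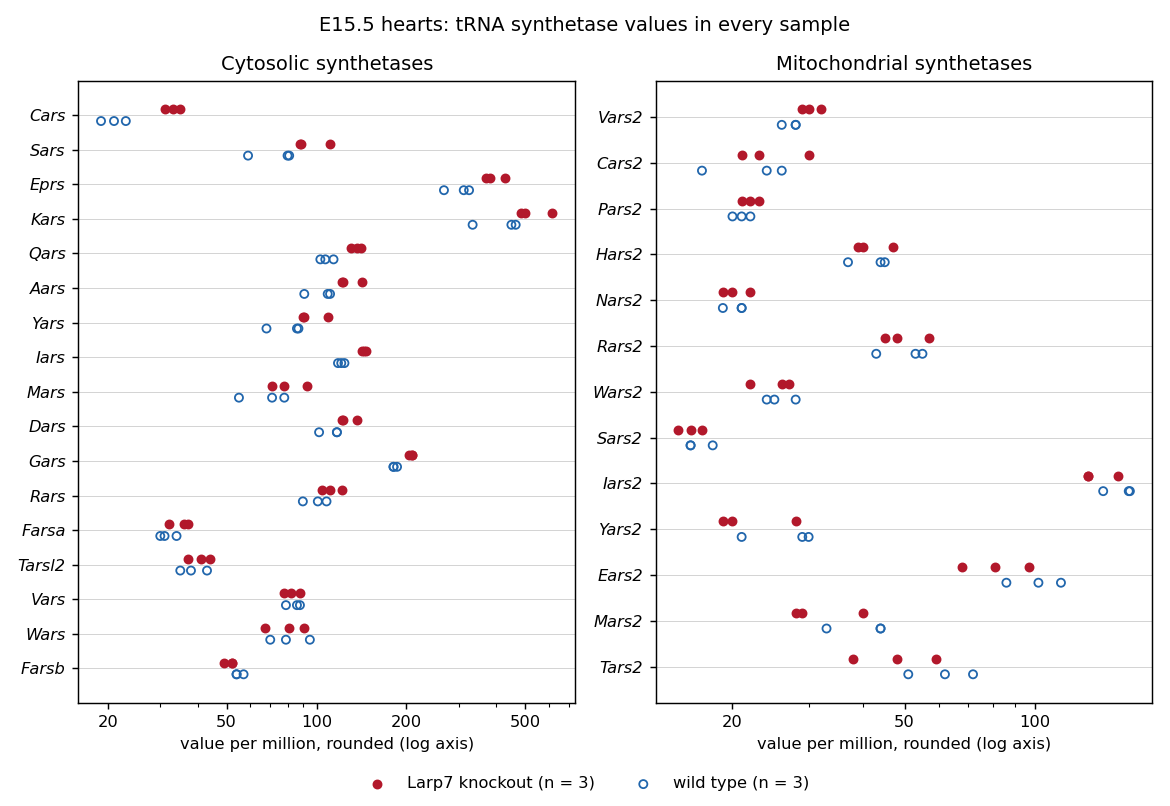
Rounded per-million value of each listed synthetase gene (log axis) in 3 Larp7 knockout hearts (filled) and 3 wild-type hearts (open) at E15.5, with members ordered by their log2 change. Cars, at 31 to 35 in knockouts and 19 to 23 in wild types, has its groups farthest apart, and filled points lie right of open ones in 10 of 17 cytosolic genes without overlap.

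Cars, the cysteinyl-tRNA synthetase gene (chr7:143557230-143600090 in mm10, minus strand), had the largest change of any member at E15.5. Its values were 31, 35 and 33 in the knockout hearts and 23, 19 and 21 in the wild-type hearts. Every knockout heart was above every wild-type heart, with means of 33 ± 2 and 21 ± 2 (SD, n = 3 each). The log2 change of 0.63 (SE 0.19, 95% interval 0.25 to 1.01) had a limma adjusted p of 0.105, and over the other settings tried the adjusted p lay between 0.0262 and 0.529. Cars was called with no replicate block (adjusted p = 0.0273, limma) and with no filter on low values (adjusted p = 0.0347). In those fits 4.44% and 3.88% of all genes were called. Cars was the single member past the fold set for printing every sample, a log2 change of at least 0.5 without overlap. The other members given by sample were chosen after their values were seen.

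Among enzymes of the multisynthetase complex, a split by textbook assignment made with the values known, all 7 listed at E15.5 had positive changes, with a median of 0.25, and 5 were higher without overlap, beside 60.4% and 19.3% of all genes tested. Eprs, a single chain that charges tRNAs for both glutamate and proline, had 368, 427 and 382 in knockout hearts and 324, 267 and 311 in wild-type hearts (log2 change 0.38, SE 0.17, limma adjusted p = 0.300). Its lowest knockout value stood above its highest wild-type value, and number 2 gave the widest gap. Qars, the glutaminyl enzyme, had 130, 137 and 141 in knockouts and 114, 107 and 103 in wild types (log2 change 0.33, SE 0.16, adjusted p = 0.352). Its groups were also apart. Kars, the lysyl enzyme, which serves cytosol and mitochondria from alternative transcripts, had 500, 616 and 484 in knockouts and 449, 333 and 464 in wild types (log2 change 0.37, SE 0.18, adjusted p = 0.371). Much of that difference lay in number 2. Iars, the isoleucyl enzyme, had 146, 142 and 144 in knockouts and 118, 124 and 121 in wild types, close within each group and well apart between them (log2 change 0.25, SE 0.16, adjusted p = 0.505). Dars, the aspartyl enzyme, changed by 0.18 without overlap, while Mars (methionyl, 0.25) and Rars (arginyl, 0.17) overlapped between groups.

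The other 10 cytosolic members at E15.5 had 7 positive and 3 negative changes, with a median of 0.16. In the adult the same split had the opposite order. There the 8 complex members had a median of 0.14, with 3 higher without overlap. The other 13 cytosolic members had a median of 0.18, with 6 higher without overlap, beside 29.3% of all adult genes. Sars, the seryl enzyme, which also charges the selenocysteine tRNA, had 89, 88 and 111 in knockout hearts and 80, 81 and 59 in wild-type hearts (log2 change 0.39, SE 0.17, limma adjusted p = 0.300). The gap was widest in number 3 there. Aars had 122, 142 and 123 in knockouts and 111, 91 and 109 in wild types (log2 change 0.31, SE 0.16, adjusted p = 0.390), and Yars had 90, 109 and 91 in knockouts and 87, 68 and 86 in wild types (log2 change 0.27, SE 0.17, adjusted p = 0.499). In both, numbers 1 and 3 lay close to the wild type and number 2 far above it. Gars, the glycyl enzyme, made in a cytosolic and a mitochondrial form, had 204, 209 and 209 in knockouts and 186, 181 and 181 in wild types, a small change of 0.18 (SE 0.16) without overlap. Vars and Wars, for valine and tryptophan, each had a change of -0.029 with overlapping values, and Tarsl2, a second cytosolic threonyl enzyme, had 0.072. Phenylalanyl-tRNA synthetase is built from 2 kinds of subunit, and these differed in sign. Its alpha subunit Farsa had 35 ± 2.65 in knockouts and 31.7 ± 2.08 in wild types, and its beta subunit Farsb had 51 ± 1.73 in knockouts and 55 ± 1.73 in wild types (SD, n = 3 each). Farsb had log2 -0.11 (SE 0.16, adjusted p = 0.800) and was lower without overlap.

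Among the mitochondrial members at E15.5 the most negative changes were those of Tars2, Mars2, Ears2 and Yars2, the enzymes for threonine, methionine, glutamate and tyrosine. Tars2 had 38, 59 and 48 in knockout hearts and 72, 51 and 62 in wild-type hearts (log2 change -0.35, SE 0.19, limma adjusted p = 0.435). Number 1 was far lower in the knockout and number 2 was higher, so the groups overlapped. Mars2 had 28, 40 and 29 in knockouts and 44, 33 and 44 in wild types (log2 change -0.32, SE 0.19, adjusted p = 0.484), and Ears2, which also starts the route to the mitochondrial glutaminyl-tRNA, had 81, 97 and 68 in knockouts and 102, 86 and 115 in wild types (log2 change -0.30, SE 0.17, adjusted p = 0.455). Each repeated the pattern of a lower knockout value in numbers 1 and 3 and a higher one in number 2. Without number 2 of the wild type, Tars2 (log2 -0.63, adjusted p = 0.0266) and Ears2 (log2 -0.54, adjusted p = 0.0498) were called lower by limma. Without number 2 of the knockout, Tars2 was called (adjusted p = 0.0288, limma) and Ears2 was not (adjusted p = 0.0520). Of all genes, 3.61% were called without that wild-type sample and 3.49% without that knockout sample. With the replicate block both fits take the change from numbers 1 and 3, so they are not separate checks. Iars2 had 133, 156 and 133 in knockouts and 165, 144 and 166 in wild types (log2 change -0.17, SE 0.16). Vars2, for valine, was the member without overlap, at 30, 32 and 29 in knockouts and 28, 26 and 28 in wild types (log2 change 0.14, SE 0.18, adjusted p = 0.753). Hars2, Nars2, Rars2, Wars2, Sars2 and Pars2 lay between -0.055 and 0.064, and Cars2 at 0.14 had widely spread values.

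At E15.5 the cytosolic and mitochondrial medians varied together from number to number, with the cytosolic median above the mitochondrial one in each. The median of all genes tested was also highest in number 2, at 0, 0.10 and 0 in numbers 1, 2 and 3. Within number 1 the median difference was 0.14 for cytosolic and -0.14 for mitochondrial members, within number 2 it was 0.37 and 0.17, and within number 3 it was 0.081 and -0.25. The excess was 0.27, 0.20 and 0.33 in the 3 numbers. Number 2 held the difference of largest size, of either sign, in 9 of 17 cytosolic and 5 of 13 mitochondrial genes. Without either number 2 sample the cytosolic median was 0.11 and the mitochondrial median -0.14, and without either number 3 sample they were 0.25 and 0. The summed cytosolic values were 4.27, 4.17 and 4.41 times the summed mitochondrial values in the knockout hearts and 3.26, 3.23 and 3.17 times in the wild-type hearts, so this ratio did not overlap between the groups. The ratio compares a sum over the same genes between samples, its size has no meaning of its own, and Kars and Eprs held 38.0%, 40.7% and 37.9% of the cytosolic sum in knockouts and 37.4%, 33.4% and 37.4% in wild types. No p-value is given for these medians and ratios, since the members were chosen with results known.

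**Figure D2:**
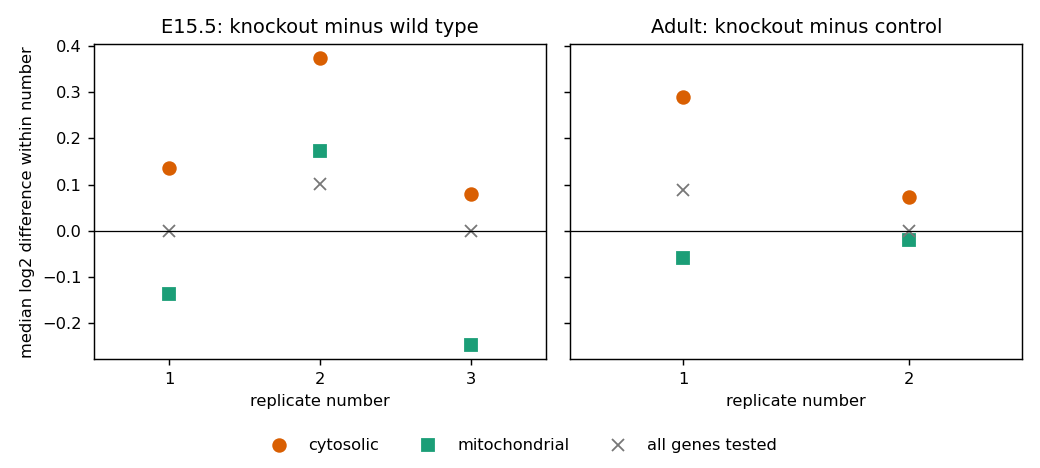
Median within-number log2 difference (knockout minus wild type or control) of cytosolic synthetases (circles), mitochondrial synthetases (squares) and all genes tested (crosses), for each replicate number. Circles lie above squares in every number, from 0.37 over 0.17 in number 2 at E15.5 to 0.074 over -0.019 in number 2 of the adult.

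In the adult apex the cytosolic median again lay above the mitochondrial one, by 0.29 as at E15.5, and 0 of 37 members were called by limma, beside 2.34% of all genes called higher and 0.950% called lower. Of 21 cytosolic members, 16 had a positive change, 1 a negative one and 4 a change of 0, with a median of 0.17 beside 0.076 for all genes tested, of which 57.9% were positive. Of 16 mitochondrial members, 5 were positive, 10 negative and 1 at 0, with a median of -0.12, beside 28.6% negative over all genes. Limma marked 2 members at an unadjusted p under 0.05, Gars and Rars, both higher, and 0 that were lower, beside 9.05% of all genes higher and 3.30% lower. Groups did not overlap in 9 higher and 1 lower cytosolic member and in 2 higher and 6 lower mitochondrial members, beside 29.3% and 12.8% of all genes.

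**Figure D3:**
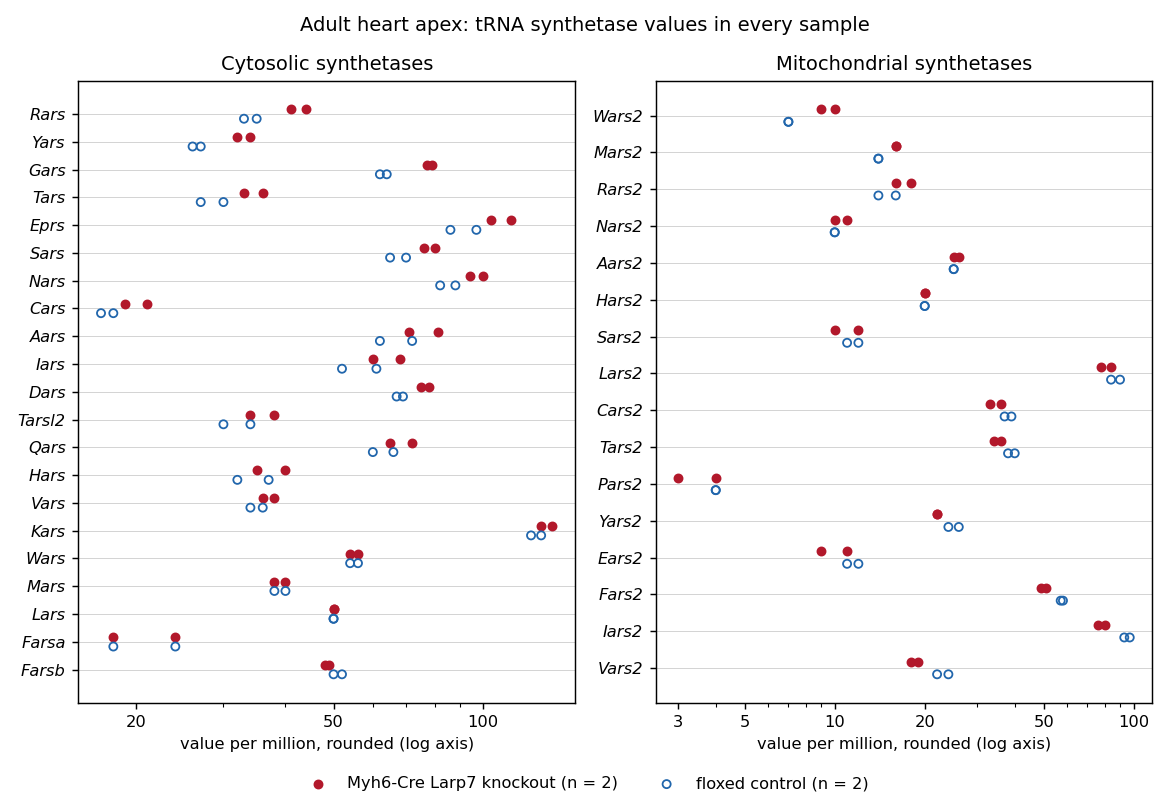
Rounded per-million value of each synthetase gene (log axis) in 2 Myh6-Cre Larp7 knockout samples (filled) and 2 floxed control samples (open) of adult heart apex, with members ordered by their log2 change. Filled points lie right of open ones without overlap in 9 of 21 cytosolic genes and left of them in 6 of 16 mitochondrial genes, such as Iars2 at 76 to 80 in knockouts and 93 to 97 in controls.

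Rars, the arginyl enzyme of the multisynthetase complex, had 41 and 44 in adult knockouts and 35 and 33 in controls (log2 change 0.31, SE 0.16, limma adjusted p = 0.393). Gars had 79 and 77 in knockouts and 62 and 64 in controls, with narrow groups set apart (log2 change 0.30, SE 0.15, adjusted p = 0.358). Yars had 34 and 32 in knockouts and 26 and 27 in controls (log2 change 0.31, SE 0.17, adjusted p = 0.444). These had the most positive changes of the cytosolic enzymes in the adult. Tars, for threonine, had 36 and 33 in knockouts and 27 and 30 in controls (log2 change 0.27), and Eprs had 114 and 104 in knockouts and 86 and 97 in controls (log2 change 0.25). Number 1 gave the larger gap in both, as in 12 of 21 cytosolic genes. Nars, the asparaginyl enzyme, had 100 and 94 in knockouts and 82 and 88 in controls, and Sars had 80 and 76 in knockouts and 65 and 70 in controls. Cars, the member with the largest embryonic change, had 21 and 19 in adult knockouts and 17 and 18 in controls (log2 change 0.18, SE 0.19, adjusted p = 0.854), so that the lowest knockout and highest control value differed by 1. Of the rest, Dars was higher without overlap at 0.17, and Aars, Iars, Tarsl2, Hars (histidyl), Qars, Vars and Kars had positive changes of 0.071 to 0.18 with values that met or crossed. Lars (leucyl), Mars, Wars and Farsa had equal means in both groups, Lars with 50 in every sample. Farsb had 49 and 48 in knockouts and 50 and 52 in controls, again lower without overlap (log2 -0.071).

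Iars2, the mitochondrial isoleucyl enzyme, had 80 and 76 in adult knockouts and 93 and 97 in controls (log2 change -0.28, SE 0.15, limma adjusted p = 0.436). Vars2 had 19 and 18 in knockouts and 22 and 24 in controls (log2 change -0.30, SE 0.18, adjusted p = 0.558), and Fars2, which acts as a single chain unlike its cytosolic counterpart, had 51 and 49 in knockouts and 57 and 58 in controls (log2 change -0.20, SE 0.15, adjusted p = 0.696). In these genes the higher knockout value stayed below the lower control value. Cars2, Tars2 and Yars2 were lower without overlap as well, with changes of -0.14, -0.15 and -0.18. Wars2, the tryptophanyl enzyme, went the other way, at 9 and 10 in knockouts and 7 and 7 in controls (log2 change 0.39, SE 0.26, adjusted p = 0.619), and Mars2 had 16 and 16 in knockouts and 14 and 14 in controls. At values this low each rounding step is a large share of the value. Lars2, Ears2, Sars2 and Pars2 had negative changes with values that met or crossed, Rars2, Nars2 and Aars2 positive ones, and Hars2 was at 20 in every sample. The summed cytosolic values were 2.85 and 2.74 times the mitochondrial ones in adult knockouts and 2.26 and 2.35 times in controls. Within numbers, the cytosolic median exceeded the mitochondrial one by 0.35 and 0.093. The cytosolic medians were 0.29 and 0.074 and the mitochondrial ones -0.060 and -0.019, so they did not vary together as at E15.5.

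**Figure D4:**
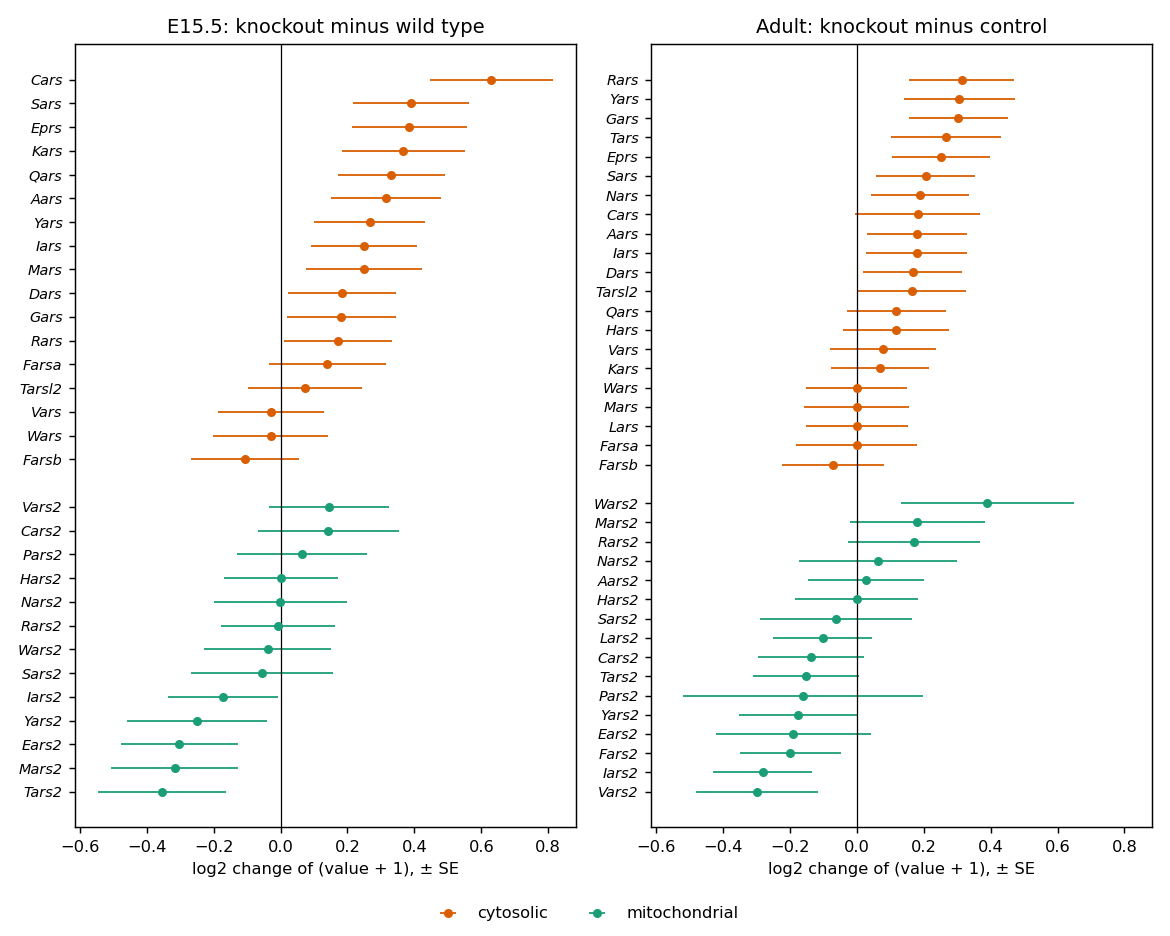
Log2 change of (value + 1), knockout minus wild type at E15.5 (left) and knockout minus control in the adult (right), with the SE from limma as bars, for cytosolic (upper) and mitochondrial (lower) synthetases. Cars at 0.63 is the most positive point at E15.5 and Wars2 at 0.39, a gene of low values, in the adult; 0 of 30 and 0 of 37 members were called.

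Of the 30 members in both tables, 12 of 17 cytosolic genes had positive changes in both comparisons and 1, Farsb, negative ones in both. Of 13 mitochondrial genes 5 were negative in both and 0 positive in both. Over all genes tested, 60.4% had positive and 33.1% negative changes at E15.5, and 57.9% and 28.6% in the adult. The share of all genes with the same sign in both was not computed, so these counts are not shown to be particular to synthetases. The comparisons share no samples, but the tables were normalized separately and their difference was not tested. Wild-type levels at E15.5 were above adult control levels in 29 of 30 members, with a median ratio of 1.73, a description across separately scaled tables. The same count and ratio were not computed over all genes, so neither is shown to be particular to synthetases. The ratio was highest for Ears2 (8.78) and Cars2 was the exception (0.588).

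The authors' deposited table gives an adjusted p for 12 of the 30 members at E15.5, of which 0 were under 0.05, beside 1.00% of the 2601 genes with one. Its single unadjusted p under 0.05 among them was for Eprs, 0.0390, with a log2 fold change of 0.32 in that table. For the adult the deposited table gives no member a p under 0.274, the value of Iars2. Exons of 11 members overlap those of another protein-coding gene in GENCODE M21 (mm10), among them Mars with Ddit3 and Hars with Hars2. Whether reads were counted by strand is not given, so values of these genes may include reads of their neighbours.

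Of the scaffold genes of the multisynthetase complex, the 2 listed at E15.5 had negative changes. Aimp1 had 46, 44 and 40 in knockout hearts and 50, 52 and 57 in wild-type hearts (log2 change -0.28, limma adjusted p = 0.449), lower without overlap. Aimp2 had 52, 59 and 57 in knockouts and 61, 54 and 56 in wild types (log2 change -0.025), which overlapped. In the adult Aimp1 had 54 and 53 in knockouts and 53 and 53 in controls, Aimp2 had 20 and 20 in knockouts and 18 and 18 in controls, and Eef1e1 had 20 and 21 in knockouts and 16 and 15 in controls (log2 change 0.38, adjusted p = 0.374). These lists of related genes were chosen with earlier results known. Xpot, the exporter that carries tRNA out of the nucleus, was listed in the adult table, with 42 and 40 in knockouts and 36 and 38 in controls (log2 change 0.14).

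Genes of the amino acid starvation and ATF4 response had positive changes at E15.5 in 29 of 31 tested members, with a median of 0.61, beside 60.4% positive changes and a median of 0.11 over all genes tested. Of these 4 were called higher and 0 lower by limma, beside 0.529% of all genes called higher, and 22 were higher without overlap, beside 19.3% of all genes. Mthfd2, a mitochondrial folate enzyme, rose with 70, 81 and 70 in knockout hearts and 43, 32 and 43 in wild-type hearts (log2 change 0.90, SE 0.17, adjusted p = 0.00987). Chac1, which degrades glutathione, rose with 8, 11 and 6 in knockouts and 1, 1 and 3 in wild types (log2 change 1.85, SE 0.34, adjusted p = 0.0146). The cationic amino acid transporter gene Slc7a3 rose with 8, 9 and 7 in knockouts and 2, 0 and 2 in wild types (log2 change 2.11, SE 0.37, adjusted p = 0.0146), and Sesn2, an amino acid sensor of the mTORC1 pathway, rose with 21, 26 and 24 in knockouts and 15, 10 and 12 in wild types (adjusted p = 0.0475). Leaving out number 2 ended the call of Sesn2, with a limma adjusted p of 0.148 for the knockout sample and 0.112 for the wild-type one. Asns, asparagine synthetase, had 70, 82 and 64 in knockouts and 23, 10 and 28 in wild types without overlap, and its change of 1.88 (SE 0.43) had an adjusted p of 0.252. The differences of Asns within numbers 1, 2 and 3 were 1.56, 2.92 and 1.16. Trib3, an ATF4-induced pseudokinase, had 10, 13 and 15 in knockouts and 5, 3 and 0 in wild types (adjusted p = 0.379), and Ddit3, the transcription factor CHOP, had 16, 17 and 21 in knockouts and 14, 13 and 8 in wild types (log2 change 0.61, adjusted p = 0.245). The authors' deposited unadjusted p was 1.26e-06 for Asns, 0.00953 for Trib3 and 0.279 for Ddit3. No adjusted p of the authors was given for these genes. The median change of the cytosolic synthetases, 0.25, was thus smaller than that of this list. The 4 calls depend on the fit: 0 were made with genes of a mean under 10 left out or without rounding variance, and 14 with no filter.

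In the adult 26 of 33 tested genes of that list had positive changes, with a median of 0.25, beside 57.9% positive changes and a median of 0.076 over all genes tested. Of these 2 were called higher by limma, beside 2.34% of all genes. Gdf15, a secreted stress hormone, rose with 16 and 14 in knockouts and 1 and 4 in controls (log2 change 2.34, SE 0.30), and Mthfd2 rose with 13 and 9 in knockouts and 2 and 7 in controls (log2 change 1.27, SE 0.29). These SEs draw largely on other genes of similar level. The differences within numbers 1 and 2 were 3.09 and 1.58 for Gdf15, and 2.22 and 0.32 for Mthfd2. Neither was called with no replicate block, and Mthfd2 was not called without number 1 of the control (adjusted p = 0.144, limma) or of the knockout (adjusted p = 0.0503). Atf4 had 109 and 110 in knockouts and 105 and 104 in controls (log2 change 0.067), and Asns had 7 and 5 in knockouts and 3 and 4 in controls (log2 change 0.63). Ddit3, with 23 and 23 in knockouts and 20 and 19 in controls, and Trib3, with 5 and 3 in knockouts and 3 and 4 in controls, stood close between groups.

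Eif2ak4, the kinase that senses uncharged tRNA, had 21, 22 and 22 in E15.5 knockouts and 21, 19 and 19 in wild types, and 9 and 7 in adult knockouts and 7 and 8 in controls. Among eIF2 kinases, phosphatase subunits, eIF2 and eIF2B, 0 of 12 were called at E15.5, and in the adult apex 1 of 14 was, beside 0.632% of all genes at E15.5 and 3.29% of all adult genes. This was Eif2ak2, the kinase activated by double-stranded RNA, which rose with 34 and 27 in knockouts and 15 and 23 in controls (log2 change 0.68, limma adjusted p = 0.00667), and was not called without number 1 of the control (adjusted p = 0.117) or of the knockout (adjusted p = 0.0563). Genes of tRNA export and editing had 4 positive and 9 negative changes at E15.5 with 0 called, and in the adult 1 of 14 was called, beside the same 3.29% of all genes, Rpp25, a subunit of ribonuclease P, with 6 and 8 in knockouts and 4 and 1 in controls (adjusted p = 0.00770). Rpp25 was not called without number 2 of the control (adjusted p = 0.144, limma) or of the knockout (adjusted p = 0.0573). Mitochondrial translation factors, with the enzymes that finish mitochondrial glutaminyl- and formylmethionyl-tRNA, had 10 of 12 negative changes at E15.5 (median -0.12) and 9 of 14 in the adult (median -0.049), with 0 called in either. Genes that process and modify mitochondrial tRNA had 8 of 12 positive changes at E15.5 (median 0.11) and as many positive as negative ones, 6 each of 14, in the adult, again with 0 called.

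**Figure D5:**
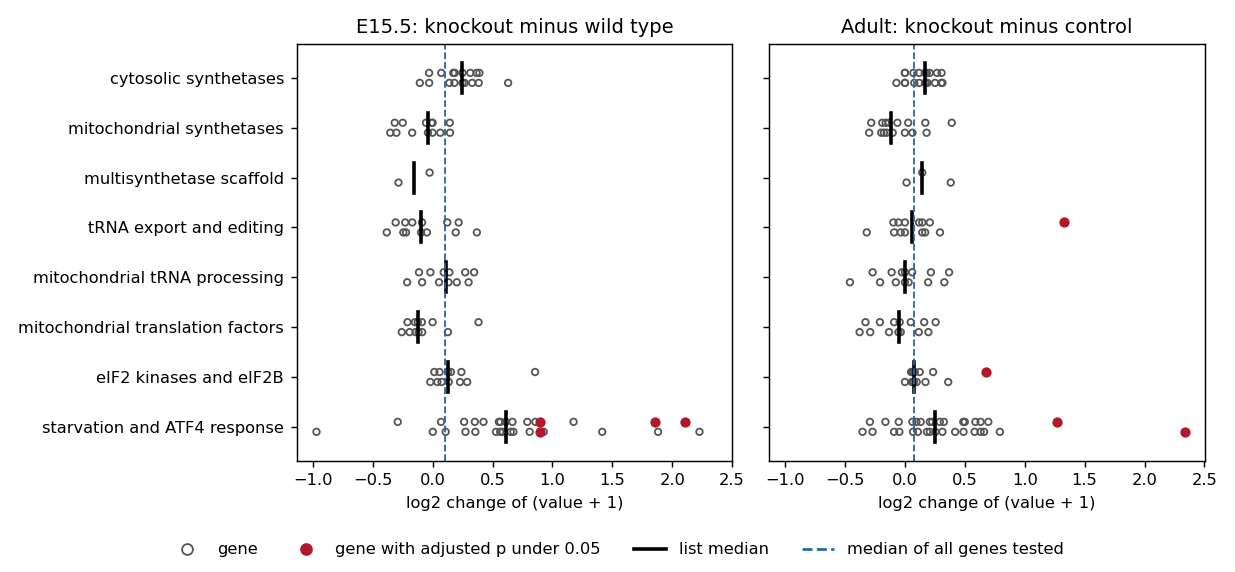
Log2 change of (value + 1) of single genes in the synthetase lists and 6 related lists, knockout minus wild type at E15.5 (left) and knockout minus control in the adult (right), with list medians as bars and the median of all genes tested as a dashed line. At E15.5 the cytosolic synthetases (median 0.25) lie right of the dashed line at 0.11, the mitochondrial ones (median -0.039) left of it, and the starvation and ATF4 list (median 0.61) farthest right, with 4 called genes.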

How the data were processed

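RNA of mouse hearts was sequenced. Per the submitters' processing notes, reads were handled with HISAT2 and HTSeq on mm10, no versions given. The authors deposited a score per gene and sample for each model, a per-million value rounded to whole numbers, together with log2 fold changes and p-values of their own, per the file headers. Scaling and rounding steps are not given in the sources used here.

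Each table was fitted on its own on log2(value + 1) with limma (version 3.58.1, R 4.3.3). The replicate number was a block, since values of the same number add to a fixed total (deviations of same-numbered samples correlate at -0.82 to -0.80 at E15.5 and -0.81 in the adult, by construction and not by a stated pairing). This leaves 2 and 1 residual degrees of freedom. Rounding variance (0.0833) was added, with eBayes trend and robust options and Benjamini-Hochberg adjustment over all genes. SEs draw on genes of similar level, and for the median adult gene on those alone.

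Members, lists and the rule for named genes (called genes, or groups without overlap and a log2 change of 0.5, plus a few fixed pathway genes) were chosen with earlier results of these data known. Scripts were tested on simulated data. Alternatives were the block, rounding variance, pseudocount, filter, scaling, prior, and each sample left out.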

Additional observations from a re-analysis of the deposited data

Results flagged for a closer look

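Some genes had groups without overlap in both comparisons, but in opposite directions. Over all genes tested, 19.3% were higher and 8.75% lower without overlap at E15.5, and 29.3% and 12.8% in the adult. The share of all genes with opposite directions was not computed, so these genes are not shown to exceed it. Their opposite directions were not tested, since the tables were normalized separately. Among synthetases the gene was Vars2, the mitochondrial valyl enzyme, at a log2 change of 0.14 in the E15.5 hearts and -0.30 in the adult. Among related genes, Aldh1l2, a mitochondrial folate enzyme, had 0.56 in the E15.5 hearts and -0.35 in the adult apex. Eif4ebp1, a translation repressor, had -0.29 and 0.29. Tsfm, a mitochondrial elongation factor, had -0.14 in the E15.5 hearts and 0.26 in the adult apex. Pop4, a ribonuclease P subunit, had -0.17 and 0.17, and Rtcb, the tRNA ligase, had 0.37 and -0.035.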

How the results depend on the processing

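The excess of the cytosolic over the mitochondrial median kept its sign in all settings, at 0.25 to 0.32 at E15.5 and 0.17 to 0.35 in the adult. Calls of single genes did not keep their number. At E15.5, higher and lower genes were 430 and 174 with no replicate block, 0 and 0 once rounding variance was dropped (limma, 1422 at an unadjusted p under 0.05), 701 and 339 with neither, 39 and 7 with pseudocount 0.5, 195 and 37 with pseudocount 5, 480 and 121 with no filter, 0 and 0 with a mean of at least 10 or with neither trend nor robust, 11 and 7 with median-of-ratios scaling, and 171 to 419 and 39 to 85 with 1 sample left out. Members called higher were 1 (Cars) with no block or no filter, beside 4.44% and 3.88% of all genes called in either direction. With neither block nor rounding variance they were 4 (Cars, Gars, Iars, Qars), beside 7.64%. With 1 sample left out, 0 to 2 members were called lower, beside 1.54% to 3.61%. Starvation and ATF4 genes called higher, in the same order of settings, were 12, 0, 11, 2, 8, 14, 0, 0, 1 and 7 to 10, with 1 lower under no filter and 0 to 1 with 1 sample left out. In the adult, higher and lower genes were 833 and 297 without rounding variance, 1133 and 489 with neither, and 220 lower with median-of-ratios scaling. Leaving out 1 adult sample, which needs a fit with no replicate block and assumes a lone sample to vary like the other group, gave 604, 955, 379 and 607 higher and 225, 296, 222 and 297 lower genes (without control 1, control 2, knockout 1 and knockout 2), 2 to 4 higher and 0 to 1 lower starvation genes, and a mitochondrial median of -0.13 to -0.062 (-0.18 with scaling). Members called higher were 1 without rounding variance (Mars2) and 2 with neither (Gars, Mars2), beside 7.62% and 10.9% of all genes called. Starvation genes called fell to 0 with no block, with no rounding variance, with neither and with a mean of at least 10. Crossing the adult numbers, chosen after seeing the data, leaves almost no residual because of the fixed totals and called 4361 higher and 1924 lower genes, 16 and 8 members and 19 and 3 starvation genes. Signs reversed for Aimp2 at E15.5 without either number 1 (-0.10 to 0.075 over all left-out samples), and in the adult for Trib3 (-0.029 and -0.16) and Eif2ak4 (-0.0090 and -0.085) without number 1 of the control or knockout, and for Aimp1 with scaling (-0.050). Rounding limits genes of low value, and depth is unknown; the causes of these shifts were not tested.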
